A study of Mus musculus with 6 samples.

Results

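The nuclear genome encodes most of the subunits of the 5 complexes of oxidative phosphorylation, and their transcripts are described here in mouse heart under doxorubicin (Dox) and ginsenoside Rh2 (Rh2). The members were every gene whose symbol followed the names of complex I (Nduf), complex II (Sdh), complex III (Uqcr and Cyc1), complex IV (Cox4 to Cox8) or complex V, the ATP synthase (Atp5), pseudogenes left out, with a mean of at least 10 read counts over the 6 libraries. The patterns found 98 symbols, 9 of which were pseudogenes. Of the other 89, 4 lay under the mean (Ndufa11b at 8.17, Ndufs6b at 3.50, Cox7b2 and Cox8c at 0), and the lowest that passed was Cox6b2 at 94.7. This left 85 members of 18328 genes tested, with 39 in complex I, 4 in complex II, 9 in complex III, 16 in complex IV and 17 in complex V. Ndufab1 was not matched by these patterns. Reads of Ndufb4, Ndufb4b and Ndufb4c, which are near-identical copies, and of members with processed pseudogenes may have been split between copies by the aligner.

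Hearts were taken from BALB/c nude mice bearing tumours of MDA-MB-231, a human triple-negative breast cancer line injected under the skin, and the Control mice bore the tumour too. The labels give an age of 6 weeks, which in the methods is the age at which mice entered the study and not that at which hearts were taken. The 6 conditions were Control, Rh2 at 20 mg/kg (Rh2-20), Rh2 at 30 mg/kg (Rh2-30), Dox, Rh2-20 + Dox and Rh2-30 + Dox. Rh2 was injected daily for 3 weeks, and Dox was injected on alternate days at 2 mg/kg to a cumulative 22 mg/kg. Each condition was 1 library from 5 pooled hearts, so the spread between animals could not be seen, and tests took the libraries that share a treatment as replicates. Nude mice lack a thymus, which limits T cells in the hearts of all groups.

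Oxidative phosphorylation passes electrons from NADH through complex I, or from succinate through complex II, to ubiquinone, on to cytochrome c through complex III, and to oxygen through complex IV. Complexes I, III and IV pump protons, and complex V uses the gradient to make ATP. Mitochondrial DNA encodes 13 further subunits, so the complexes are built from 2 genomes, except complex II, which is nuclear throughout. Heart muscle makes nearly all its ATP this way, and anthracyclines such as Dox are known to accumulate in mitochondria. Per length, in the authors' FPKM averaged over the 6 libraries, members had a median of 126. By complex the median FPKM was 101.1 in I, 109.9 in II, 123 in III, 291 in IV and 214 in V. The range ran from Cox6b2, the testis form of subunit 6B, at 1.48 to Atp5h, subunit d of the ATP synthase stalk, at 1078.

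Promoters of nuclear-encoded subunits are known to hold sites for NRF1, for ETS family factors such as GABP, and for YY1. RefSeq start sites on GRCm38.p6 matched 68 of the 85 members by gene ID, with a window from 250 bases before to 50 after each start (5 members had 2 windows and the others 1), and a motif was counted for a gene when any of its windows held it. The letters GCGCATGCG (NRF1) lay on either strand in 8 of these members (11.8%), against 1.95% of all 27025 genes with a window. CCGGAAGT (ETS family) lay in 5 (7.35%, against 4.31% of all) and AAGATGGCG (YY1) in 7 (10.3%, against 1.64% of all). The searched letters of the 3 motifs did not overlap with one another in these windows, although GCGCATGCG can match both strands at neighbouring bases. A match is a description of these letters and not a site of binding. In 6 subunits (7.06% of members, against 7.84% of all genes tested) the libraries with Dox were all above those without Dox. The windows shown are those of 4 of these 6, and of Cox8a and Cox8b, the ubiquitous and the muscle form of subunit 8. Capitals mark a motif match, and each runs 5′ to 3′ on the gene's strand: Ndufc1 (chr3:51408906-51409205, minus strand), Ndufc2 (chr7:97399753-97400052, plus strand), Ndufs3 (chr2:90904672-90904971, minus strand), Atp5k (chr5:108434350-108434649, minus strand), Cox8a (chr19:7217567-7217866, minus strand) and Cox8b (chr7:140900397-140900696, minus strand).
Ndufc1: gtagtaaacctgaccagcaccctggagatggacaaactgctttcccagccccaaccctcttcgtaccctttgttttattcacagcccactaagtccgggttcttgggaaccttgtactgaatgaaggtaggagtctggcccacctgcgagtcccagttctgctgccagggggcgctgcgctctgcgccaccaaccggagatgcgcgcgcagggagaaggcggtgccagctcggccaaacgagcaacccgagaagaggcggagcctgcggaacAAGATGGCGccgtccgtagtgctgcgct
Ndufc2: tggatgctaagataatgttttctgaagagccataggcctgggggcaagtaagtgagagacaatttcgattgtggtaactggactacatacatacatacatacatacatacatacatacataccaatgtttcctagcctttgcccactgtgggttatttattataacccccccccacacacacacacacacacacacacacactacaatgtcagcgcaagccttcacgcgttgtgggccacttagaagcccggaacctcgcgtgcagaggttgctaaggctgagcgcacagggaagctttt
Ndufs3: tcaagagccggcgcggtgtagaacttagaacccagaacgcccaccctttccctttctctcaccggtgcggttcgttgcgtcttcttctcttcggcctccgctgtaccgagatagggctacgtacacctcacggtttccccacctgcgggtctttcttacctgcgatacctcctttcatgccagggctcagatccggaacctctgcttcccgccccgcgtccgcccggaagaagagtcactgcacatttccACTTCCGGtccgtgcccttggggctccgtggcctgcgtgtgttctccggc
Atp5k: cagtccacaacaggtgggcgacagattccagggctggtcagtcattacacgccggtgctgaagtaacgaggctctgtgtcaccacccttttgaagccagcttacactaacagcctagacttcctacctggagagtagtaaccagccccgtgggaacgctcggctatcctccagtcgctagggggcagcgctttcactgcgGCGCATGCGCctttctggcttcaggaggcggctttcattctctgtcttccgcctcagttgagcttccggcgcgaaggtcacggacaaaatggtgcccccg
Cox8a: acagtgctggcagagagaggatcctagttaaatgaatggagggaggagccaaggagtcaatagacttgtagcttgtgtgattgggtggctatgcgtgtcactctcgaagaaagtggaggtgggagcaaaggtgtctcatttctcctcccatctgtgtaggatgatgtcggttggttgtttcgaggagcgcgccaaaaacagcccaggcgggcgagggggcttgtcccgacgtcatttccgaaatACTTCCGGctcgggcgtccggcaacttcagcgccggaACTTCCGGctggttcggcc
Cox8b: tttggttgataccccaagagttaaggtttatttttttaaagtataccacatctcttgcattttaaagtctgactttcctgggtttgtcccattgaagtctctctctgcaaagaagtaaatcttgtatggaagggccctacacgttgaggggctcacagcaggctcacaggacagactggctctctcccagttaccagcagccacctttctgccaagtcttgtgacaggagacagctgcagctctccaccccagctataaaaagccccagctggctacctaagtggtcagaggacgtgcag
Ndufc1 held the YY1 letters just after its start, Ndufs3 the ETS letters at its start, Atp5k the NRF1 letters before its start and Cox8a the ETS letters at 2 places, while Ndufc2 and Cox8b held none of the 3 motifs. Ndufa4 and Cox5a, the other 2 of the 6 subunits with all Dox libraries higher, are not shown. Their windows held none of the 3 motifs either.

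Total counts ran from 86164411 to 90621002 a library. The tissue in the libraries was not equal. Cardiomyocyte markers (10 of 10 measured) summed to 21394 CPM (counts scaled to the size of the library, with TMM factors) in Rh2-30 and 30429.9 in Rh2-30 + Dox, with the other 4 libraries from 25399.5 to 27967. Atrial markers (4) summed to 1662 CPM in Rh2-30 and 45.7 to 403 in the others, with Sln, a defining atrial gene, at 0 counts in Rh2-30 + Dox. Ucp1, the defining gene of brown fat, had 6442 counts in Rh2-30 and at most 12 elsewhere. The sum of the brown fat markers (8), which include Cox8b and Cpt1b, also expressed in the myocyte, did not follow Ucp1. It was 722 CPM in Rh2-30, 916 in Rh2-30 + Dox and 662 to 743 in the others. In Rh2-30, 6 of the 8 were above Control and 2 below. Fibroblast markers (6) summed to 2429.7 CPM in Rh2-30 and 975 in Rh2-30 + Dox, the highest and lowest of the 6, and blood markers (5) ranged from 1657 in Rh2-30 + Dox to 10498 in Dox. In bulk tissue, fewer cells of a type and less RNA per cell cannot be told apart, and the part of these differences in the results was not tested.

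Nuclear-encoded subunits were highest in Rh2-30 + Dox. The 85 members took 2.095% of all counts there, against 1.47% in Dox, 1.55% in Control, 1.65% in Rh2-30, 1.70% in Rh2-20 + Dox and 1.83% in Rh2-20. Of the 85, 79 (92.9%) had their highest normalised count in Rh2-30 + Dox, against 20.2% of all genes tested, and 45 (52.9%) their lowest in Dox, against 20.0% of all. A further 26 were lowest in Rh2-30, a number with no share of all genes to be set against. Against Control, the median log2 ratio of the members was 0.18 in Rh2-20, -0.038 in Rh2-30, -0.087 in Dox, 0.074 in Rh2-20 + Dox and 0.45 in Rh2-30 + Dox. The number of members above Control was 80, 33, 29, 64 and 82 in the same order, and the share of all genes above Control is not given beside it. The Rh2-30 value turned to 0.13, with 69 members above Control, when libraries were scaled by their totals alone, which moved the median of all genes to 0.20.

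**Figure D1:**
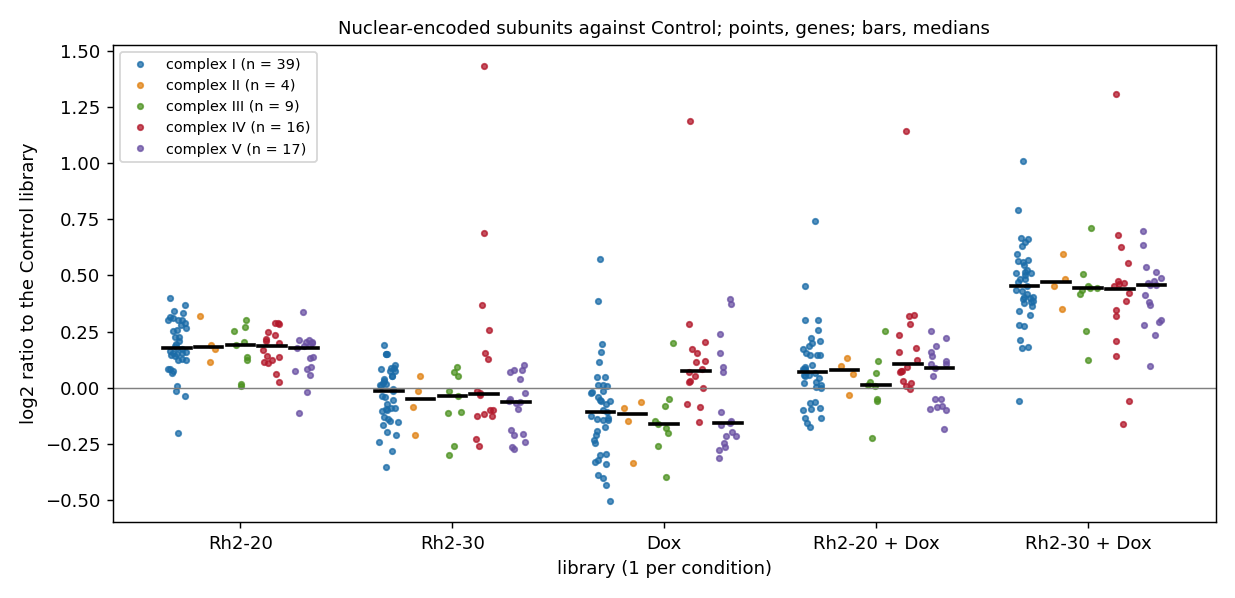
The log2 ratio of each member to the Control library (vertical axis) in the 5 treated libraries (horizontal axis), with points for genes, colours for complexes and black bars for the median of each complex. In Rh2-30 + Dox the medians of all 5 complexes lie between 0.44 and 0.47, and the highest red point in the last 4 libraries is Cox6b2, which has few counts.

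The comparison with Dox alone asks what the addition of Rh2 changed. In Rh2-30 + Dox, 83 of 85 members were above Dox, with a median log2 ratio of 0.52 (all genes tested, -0.028). 27 members (31.8%) were at least 1.5 times higher, against 8.08% of all genes, and 0 were 1.5 times lower, against 14.3%. Each ratio compares 1 library with 1 and has no test. Counting error on these genes was small, but the dispersion between the libraries gave an interval of 0.675 on the log2 scale to either side at high counts, and 13 of the 85 intervals lay above 0. The same count was not made over all genes, so these 13 have no share to be set against. In Rh2-20 + Dox the median over Dox was 0.16, with 73 of 85 above Dox, 0 past 1.5 times higher (all genes, 6.86%) and 0 lower (all genes, 7.41%). Short genes with many counts that are not members also leaned this way: 288 genes with transcripts under 1000 bases and at least 1000 counts had a median of 0.23 in Rh2-30 + Dox over Dox, and the members' median longest transcript was 861 bases. Cardiomyocyte markers had a median of 0.25 over Control in Rh2-30 + Dox and -0.021 in Dox.

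Against Control, Rh2-30 + Dox had 14 members (16.5%) at least 1.5 times higher (all genes, 8.78%) and 0 lower (all genes, 13.9%). Against Rh2-30, the numbers were 21 (24.7%) higher (all genes, 6.96%) and 0 lower (all genes, 20.4%). The other libraries had few such members. None was past 1.5 times in Rh2-20 over Control (all genes, 6.90% higher and 6.63% lower). In Rh2-30 over Control, 2 members were higher, Cox6a1 and Cox6b2 (all genes, 16.1%), and 0 lower (all genes, 5.70%). In Dox over Control, 1 was higher, Cox6b2 (all genes, 10.9%), and 0 lower (all genes, 8.57%). In Rh2-20 + Dox over Control, 2 were higher, Cox6b2 and Ndufc2 (all genes, 10.3%), and 0 lower (all genes, 7.98%). In Rh2-20 + Dox over Rh2-20, 1 was higher, Cox6b2 (all genes, 8.63%), and 0 lower (all genes, 6.62%). Of these comparisons, the 5 against Control share that library.

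In complex I, which takes electrons from NADH, 38 of 39 members were highest in Rh2-30 + Dox and 24 were lowest in Dox. Ndufs1, the largest core subunit and a carrier of iron-sulphur clusters, had a CPM of 412 in Control, 513 in Rh2-20, 439 in Rh2-30, 351 in Dox, 432 in Rh2-20 + Dox and 607 in Rh2-30 + Dox. Rh2-30 + Dox was the highest and Dox the lowest of the 6, a log2 ratio of 0.79 (1.73 fold), with a counting interval of 0.77 to 0.81 and a dispersion interval of 0.11 to 1.46. Ndufv1, which binds NADH and FMN, had a ratio of 0.58 and Ndufs7, which holds the last iron-sulphur cluster, one of 0.63, and both were highest in Rh2-30 + Dox, although in Ndufv1 the lowest library was Rh2-30 (212 CPM).

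The largest Rh2-30 + Dox over Dox ratio of complex I was in the accessory subunit Ndufb9, at 0.87 (1.83 fold). Its CPM was 225 in Control, 273 in Rh2-20, 231 in Rh2-30, 183 in Dox, 241 in Rh2-20 + Dox and 334 in Rh2-30 + Dox, with Dox below Control and Rh2-30 + Dox above every other library. Ndufa8 and Ndufs6, accessory subunits with 2 of the largest ranges over the 6 libraries, had ratios of 0.83 and 0.83. Ndufb2, whose log2 difference between the libraries with and without Dox was the lowest of the complex (-0.11), still had a ratio of 0.68 here, from 56.7 CPM in Dox to 90.8. Ndufa4, named for complex I and known to sit in complex IV, ran from 199 CPM in Rh2-30 to 298 in Rh2-30 + Dox. Its paralogue Ndufa4l2, known as a hypoxia-induced gene, was the exception of the complex and held 9.83 to 11.6 CPM, with its highest value in Control and 11.2 in Dox and 11.2 in Rh2-30 + Dox.

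All 4 subunits of complex II, succinate dehydrogenase, were highest in Rh2-30 + Dox. Sdha, the flavoprotein that oxidises succinate in the TCA cycle, had 470.4 in Control, 586 in Rh2-20, 488 in Rh2-30, 425 in Dox, 516 in Rh2-20 + Dox and 711 in Rh2-30 + Dox CPM, and its ratio over Dox was 0.74 (dispersion interval, 0.068 to 1.42). The iron-sulphur subunit Sdhb had a ratio of 0.54, the smallest of the 4, and the membrane anchors Sdhc and Sdhd had 0.55 and 0.69. In Sdhd the 2 lowest libraries were Dox (44.1 CPM) and Rh2-30 (48.2 CPM), below Control (55.8 CPM).

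In complex III, the cytochrome bc1 complex, all 9 members were highest in Rh2-30 + Dox, with ratios over Dox from 0.40 in Uqcrb to 0.71 in Uqcrc2. Uqcrc2, a core protein, had 369 in Control, 440.1 in Rh2-20, 382 in Rh2-30, 321 in Dox, 386 in Rh2-20 + Dox and 524 in Rh2-30 + Dox CPM, so that Dox was the lowest library and the 2 libraries with Rh2 alone lay between Control and Rh2-30 + Dox. Its partner Uqcrc1 had a ratio of 0.70, the Rieske protein Uqcrfs1 one of 0.60 and cytochrome c1 (Cyc1) one of 0.49. Uqcr11 was lowest in Dox and was nearly level with Control in Rh2-30 + Dox, at 40.8 CPM in Control, 31.0 in Dox and 44.5 in Rh2-30 + Dox. Uqcrq went the other way in Dox, at 165 CPM in Control, 189 in Dox and 269.6 in Rh2-30 + Dox.

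Complex IV, cytochrome c oxidase, was the most mixed. Of 16 members, 11 were highest in Rh2-30 + Dox, 2 were lowest in Dox and 9 were lowest in Rh2-30. The median ratio of Rh2-30 + Dox over Dox was 0.33, against 0.55 in complex I, 0.62 in complex II, 0.52 in complex III and 0.49 in complex V. Dox alone was above Control in complex IV, at a median of 0.076, and below it in complexes I, II, III and V, at -0.11, -0.12, -0.16 and -0.16. Cox5b, a zinc-binding subunit and the most abundant of the complex per length, had 532 in Control, 575 in Rh2-20, 454 in Rh2-30, 501 in Dox, 534 in Rh2-20 + Dox and 676 in Rh2-30 + Dox CPM, with Rh2-30 the lowest. Cox4i1, the main form of the regulatory subunit 4, had a ratio over Dox of 0.45, and Cox5a had 0.40. Cox7a2, the ubiquitous form of subunit 7A, was the lowest of the complex in this comparison, at -0.21. Its CPM was 119.7 in Control, 141 in Rh2-20, 143 in Rh2-30, 124 in Dox, 146 in Rh2-20 + Dox and 107 in Rh2-30 + Dox, so Rh2-30 + Dox was its lowest library.

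In complex V, the ATP synthase, all 17 members were highest in Rh2-30 + Dox and 10 were lowest in Dox. Atp5b, the catalytic beta subunit, had 1059 in Control, 1162 in Rh2-20, 1018 in Rh2-30, 874 in Dox, 997 in Rh2-20 + Dox and 1379 in Rh2-30 + Dox CPM. Dox was its lowest library and Rh2-30 + Dox its highest, a ratio of 0.66 (1.58 fold; dispersion interval, -0.017 to 1.33). Atp5a1, the alpha subunit, had a ratio of 0.58, and Atp5d, the delta subunit of the rotor, had the largest of the complex at 0.67. The 3 genes of the c-ring, which encode the same mature protein, differed from each other. Atp5g1 and Atp5g3 were above Control in Dox (0.39 and 0.071 on the log2 scale) and lowest in Rh2-30, while Atp5g2 stayed within 46.3 to 56.2 CPM, with the smallest ratio over Dox of the complex (0.19). Atp5l, subunit g, and Atp5md, a small subunit at the dimer interface, had ratios of 0.39 and 0.41, and Atp5mpl had 0.67.

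**Figure D2:**
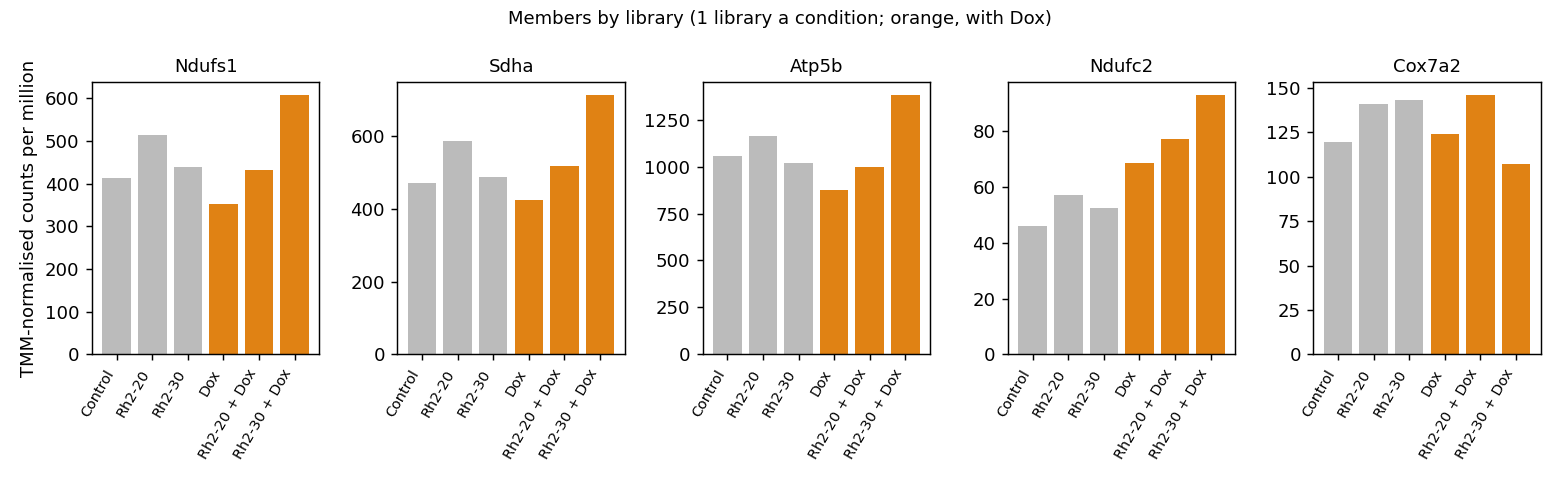
TMM-normalised CPM (vertical axes, from 0) of 5 members in the 6 libraries, with libraries given Dox in orange. Ndufs1, Sdha and Atp5b are highest in Rh2-30 + Dox and lowest in Dox, Ndufc2 is higher in all 3 libraries with Dox, and Cox7a2 is lowest in Rh2-30 + Dox.

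The ratio of the library with Dox to the library without it at the same Rh2 dose turned with the dose. The median over members was -0.087 at 0 mg/kg, -0.095 at 20 mg/kg and 0.49 at 30 mg/kg, beside -0.0084, -0.0003 and -0.033 for all genes tested. With library totals alone the last value was 0.32, where the median of all genes was -0.21. Of the 85 members, 56 were lower with Dox at 0 mg/kg, 68 were lower at 20 mg/kg and 80 were higher at 30 mg/kg, and 52 did all 3. Complexes II and III followed this order most closely, with 4 of 4 and 8 of 9, against 26 of 39 in complex I, 11 of 17 in complex V and 3 of 16 in complex IV. A smaller number, 10 of 85, were higher with Dox at all 3 doses. For example, Ndufs1 had ratios of -0.23, -0.25 and 0.47 at 0, 20 and 30 mg/kg, Atp5b had -0.28, -0.22 and 0.44, and Cox5a had 0.28, 0.026 and 0.80. The order of the 52 members was also found in 27 of 52 mitochondrial ribosomal proteins, 12 of 14 TCA cycle genes and 2 of 62 cytosolic ribosomal proteins. Higher with Dox at all 3 doses were 6, 1 and 3 genes of these lists. The share of all genes tested with either order was not counted. Each dose rests on 1 library with Dox and 1 without. In Rh2-30 + Dox over Rh2-30, cardiomyocyte markers had a median of 0.67, with 10 of 10 above 0. TCA cycle genes had 0.49 there, with 14 of 14 above 0, beside the members' 0.49. The atrial and fibroblast markers and Ucp1 stood higher in the Rh2-30 library than in Rh2-30 + Dox, as given above. The part of these tissue differences in the 30 mg/kg ratio was not tested.

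**Figure D3:**
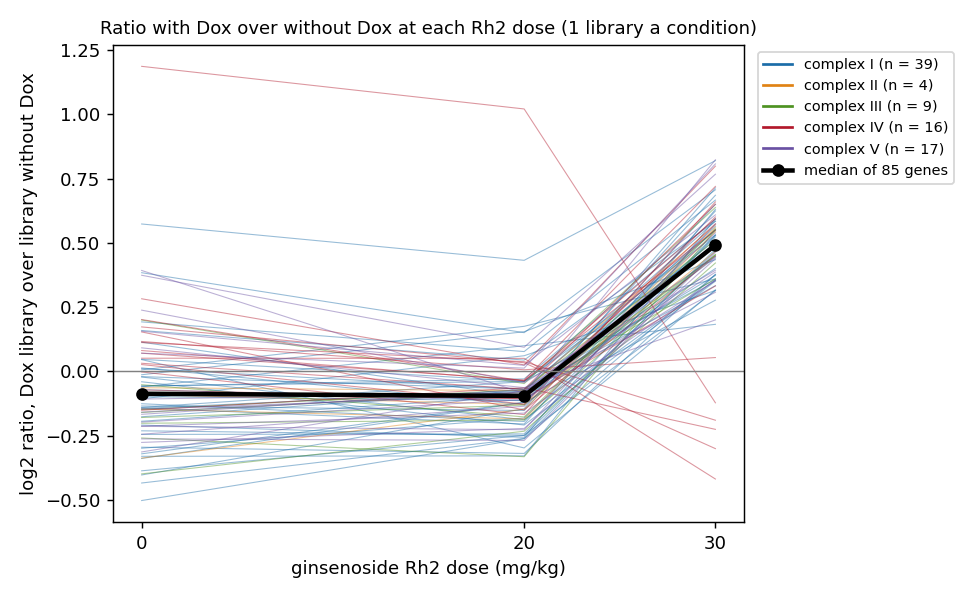
The log2 ratio of the library with Dox over the library without it (vertical axis) at Rh2 doses of 0, 20 and 30 mg/kg (horizontal axis), with thin lines for the 85 members, coloured by complex, and the black line for their median. The median goes from -0.087 and -0.095 at the lower doses to 0.49 at 30 mg/kg.

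Whether the Dox difference itself changed with Rh2 was tested as an interaction across all genes with edgeR's quasi-likelihood test, with the 2 Rh2 doses as replicates. No member passed an adjusted p of 0.05 (0% of all genes did), and none passed an unadjusted p under 0.05 in either direction (all genes, 0.895% higher and 1.82% lower). DESeq2's Wald test called 38 genes and 0 members. The median interaction of the members was 0.30 on the log2 scale, with 76 of 85 above 0, and all genes had -0.0090. This median was 0.10 without the Rh2-30 + Dox library and 0.48 without Rh2-20 + Dox, and 0.20 with library totals alone. Members at an unadjusted p under 0.05 numbered 1 of 85 without Rh2-20, where 5.35% of all genes were in either direction, and 3 of 85 without Rh2-20 + Dox, where 6.26% of all genes were.

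Over all doses, the 3 libraries with Dox were set against the 3 without. No member passed an adjusted p of 0.05 in edgeR's test, while 5 genes of 18328 did (0.0273%). At an unadjusted p under 0.05, 5 members (5.88%) were higher, against 4.20% of all genes, and 0 were lower, against 5.91%. Ndufc2, an accessory subunit of the membrane arm of complex I, had the largest difference, at 0.61 ± 0.14 (log2, SE; adjusted p = 0.255 by edgeR). Its CPM was 46.2, 57.3 and 52.6 in Control, Rh2-20 and Rh2-30, and 68.7, 77.3 and 93.0 with Dox added. The groups did not overlap, and at each dose the library with Dox was the higher. DESeq2's Wald test called Ndufc2 as the only member among 423 genes, with a log2 difference of 0.62.

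The other 4 were Atp5k, subunit e of the ATP synthase, at 0.43 ± 0.14 (log2, SE), Ndufc1, the partner of Ndufc2, at 0.42 ± 0.14, Cox5a at 0.38 ± 0.15 and Ndufs3, a core subunit of complex I, at 0.32 ± 0.13. Their adjusted p by edgeR lay between 0.387 and 0.489. Ndufc1 and Ndufs3 were taken from this count after their values were seen. Atp5k had 97.9 to 109.6 CPM without Dox and 117 to 167 with it. In all, 6 members (7.06%) had all 3 libraries with Dox above all 3 without, against 7.84% of all genes, and 0 had them below, against 9.20%. The number at an unadjusted p under 0.05, with the share of all genes in either direction in parentheses, was 2 without Control (8.86%), 3 without Rh2-30 (9.08%), 2 without Rh2-30 + Dox (9.21%), 8 without Rh2-20 (8.09%) and 3 with Rh2 dose as a term (8.72%). The median over members was 0.093 (all genes, -0.015), with 74 of 85 above 0, and it turned to -0.054 without the Rh2-30 + Dox library and to -0.10 without both Rh2-30 libraries.

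The 4 libraries with Rh2 were set against the 2 without, with Dox as a term. No member and no other gene passed an adjusted p of 0.05 in edgeR's test (0% of genes), and DESeq2's Wald test called 247 genes and 0 members. At an unadjusted p under 0.05, 2 members (2.35%) were higher, against 4.09% of all genes, and 0 lower, against 4.65%. They were Ndufc2, at 0.28 ± 0.10 (log2, SE), and Cox8a, the ubiquitous form of subunit 8, at 0.26 ± 0.091, both with an adjusted p of 0.568 by edgeR. Cox8a had 57.3 and 51.7 CPM in Control and Dox, and 60.5 to 73.9 CPM in the 4 libraries with Rh2, with no overlap. The differences were small but lay on one side, with 84 of 85 members above 0, Ndufa4l2 excepted (-0.12), and a median of 0.22 (all genes, 0.011). In complex I, Ndufb9 had the largest difference, 0.40 ± 0.19 (adjusted p = 0.578 by edgeR).

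All 4 libraries with Rh2 lay above both libraries without it in 24 members (28.2%), against 9.86% of all genes, and below in 0, against 9.10%. Of the 24, 16 were in complex I, 1 in II, 2 in III, 2 in IV and 3 in V. This was not particular to the members. The same lack of overlap, higher with Rh2, was found in 23 of 62 cytosolic ribosomal proteins, 18 of 52 mitochondrial ribosomal proteins and 5 of 14 TCA cycle genes. In the Rh2 fit, 61 of 62 cytosolic ribosomal proteins were above 0, with a median of 0.17. How many members had an unadjusted p under 0.05 depended on the library, and so did the share of all genes in either direction, given in parentheses. The number was 10 without Rh2-30 (7.91%), 42 without both Rh2-30 libraries (13.6%), 1 without Control (5.19%), 1 without Rh2-30 + Dox (7.82%) and 0 without Dox (3.69%). The median was 0.074 without Dox and 0.36 without Control. Short genes with many counts that are not members had a median of 0.17 in the same fit.

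The 13 subunits encoded in mitochondrial DNA, which join the nuclear-encoded members in complexes I, III, IV and V, had a different pattern in the Rh2 difference. They took 4.46% of all counts in Control, 4.38% in Dox, 3.54% in Rh2-20, 3.46% in Rh2-20 + Dox, 3.47% in Rh2-30 + Dox and 2.89% in Rh2-30. In all 13, every library with Rh2 lay below both libraries without it, against 9.10% of all genes. The Rh2 difference of the 13 had a median of -0.48 with a range of -0.52 to -0.45. The mitochondrial ribosomal RNAs mt-Rnr1 and mt-Rnr2 did not split this way as shares of all counts. In Dox they took 0.302% and 0.426%, below Rh2-20 (0.339% and 0.449%) and Rh2-20 + Dox (0.308% and 0.453%). Both were highest in Control, and both were lower in Rh2-30 and Rh2-30 + Dox than in Dox. All 13 had an unadjusted p under 0.05 and none passed the adjustment (lowest adjusted p = 0.567 by edgeR). The number at an unadjusted p under 0.05, with the share of all genes in parentheses, was 0 without Control (5.19%), 5 without Rh2-20 + Dox (6.29%), 7 without Dox (3.69%), 2 with each dose as its own level (3.76%) and 1 by limma on log2(FPKM + 1) (10.5%). The 13 are cut from shared precursor transcripts, so they are not 13 independent values. Against Control, their median was -0.41 in Rh2-20, -0.79 in Rh2-30, -0.44 in Rh2-20 + Dox and -0.36 in Rh2-30 + Dox, where the nuclear-encoded members stood at 0.18, -0.038, 0.074 and 0.45. In Dox the medians were -0.040 and -0.087. The ratio with Dox over without it was closer between the 2 sets. At 0, 20 and 30 mg/kg its median was -0.040, -0.052 and 0.44 in the 13, and -0.087, -0.095 and 0.49 in the nuclear-encoded members. Lower, lower and higher in this order were 9 of the 13 and 52 of the 85.

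Other gene lists of the mitochondrion were set beside the members. Enzymes of the TCA cycle, which feeds NADH and succinate to the chain, were all highest in Rh2-30 + Dox (14 of 14), with a median over Control of 0.47 there and -0.18 in Dox. Mitochondrial ribosomal proteins, which translate the mitochondria-encoded subunits, were highest in Rh2-30 + Dox in 37 of 52, with a median over Control of 0.29. Assembly factors of the complexes had 0.29 over 51 genes, and genes of coenzyme Q synthesis and cytochrome c had 0.36 over 15. Cytosolic ribosomal proteins, short and abundant transcripts outside the mitochondrion, had 0.14, and 4 of 62 were highest in Rh2-30 + Dox. In the Rh2 fit, an unadjusted p under 0.05 was reached upwards by 1 of 14 TCA cycle genes, 10 of 52 mitochondrial ribosomal proteins, 2 of 51 assembly factors, 0 of 15 coenzyme Q and cytochrome c genes and 5 of 62 cytosolic ribosomal proteins, downwards by 0 of each, and 0 passed the adjustment (all genes, 4.09% upwards and 4.65% downwards at an unadjusted p under 0.05).

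Among 21 regulators of mitochondrial genes, 3 were higher with Dox and 0 lower at an unadjusted p under 0.05 (all genes, 4.20% and 5.91%), 0 passed the adjustment in the Dox, the Rh2 or the interaction test, and the list's median over Control in Rh2-30 + Dox was 0.14. Ppargc1a, which encodes the coactivator PGC-1 alpha and is known to raise oxidative phosphorylation genes, had CPM of 249, 225 and 307 in Control, Rh2-20 and Rh2-30, and 449, 323 and 423 in Dox, Rh2-20 + Dox and Rh2-30 + Dox. Its Dox difference was 0.61 ± 0.17 (log2, SE; adjusted p = 0.333 by edgeR). It was highest in Dox and next in Rh2-30 + Dox, the libraries with the lowest and the highest share of counts in members. Each of these values is 1 library, and Ppargc1a was named after its values were seen. Whether it bears on the levels of the members was not tested.

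**Figure D4:**
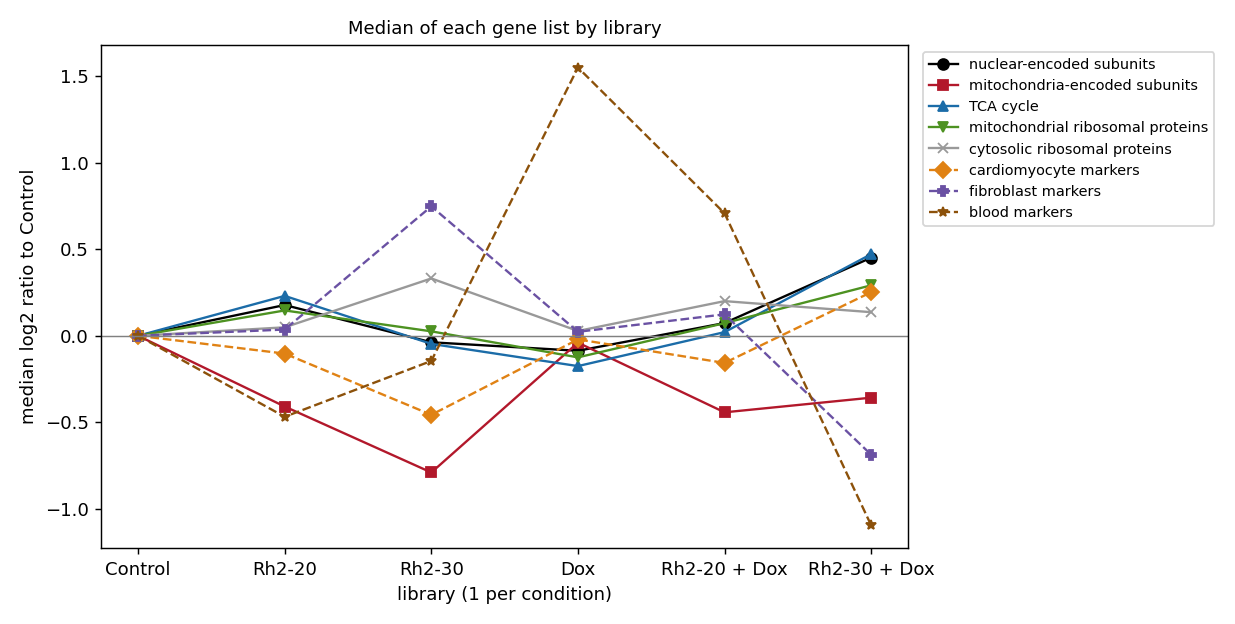
The median log2 ratio to Control (vertical axis) of the members, 4 other gene lists and 3 marker lists in each of the 6 libraries (horizontal axis), with lines that only join the points of a list. In Rh2-30 + Dox the nuclear-encoded subunits stand at 0.45, the mitochondria-encoded subunits at -0.36, the cardiomyocyte markers at 0.25, the fibroblast markers at -0.69 and the blood markers at -1.10.

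Several complex IV subunits exist in a ubiquitous form and in a form of heart and skeletal muscle, and the count ratio within a library does not depend on scaling. The ratio of Cox6a1, the ubiquitous form of subunit 6A, to the muscle form Cox6a2 was 0.0953 in Control, 0.114 in Rh2-20, 0.184 in Rh2-30, 0.102 in Dox, 0.119 in Rh2-20 + Dox and 0.0906 in Rh2-30 + Dox. Rh2-30 was far above the other 5, with a 95% counting interval of 0.178 to 0.190. This came from both sides, since in Rh2-30 over Control Cox6a1 had a log2 ratio of 0.69 and Cox6a2 one of -0.26. The ratio of Cox7a2 to the muscle form Cox7a1 was 1.40 in Control, 1.47 in Rh2-20, 1.70 in Rh2-30, 1.31 in Dox, 1.69 in Rh2-20 + Dox and 0.935 in Rh2-30 + Dox. Here Rh2-30 + Dox was far below the others, with an interval of 0.909 to 0.962.

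The ratio of Cox8a to the muscle form Cox8b, whose promoter windows are shown above, was 0.489 in Control, 0.441 in Rh2-20, 0.645 in Rh2-30, 0.441 in Dox, 0.474 in Rh2-20 + Dox and 0.349 in Rh2-30 + Dox. The ratio of Cox4i2, the form known from lung and from hypoxia, to Cox4i1 was 0.00858 in Rh2-30 + Dox and 0.0124 to 0.0148 in the others. In these 4 pairs the ratio was lowest in Rh2-30 + Dox and highest in Rh2-30, the libraries with the most and the fewest cardiomyocyte marker counts and the fewest and the most fibroblast marker counts. The other pairs compared departed from this order. Ndufa4l2 over Ndufa4 was lowest in Rh2-30 + Dox (0.0375) but highest in Control (0.0557), with 0.0495 in Rh2-30. Cox6b2 over Cox6b1 was highest in Rh2-30 (0.00505) but lowest in Rh2-20 (0.00183), with 0.00368 in Rh2-30 + Dox. The part of the tissue in these ratios was not tested. Cox6b2, the testis form of subunit 6B, had 45 and 53 counts in Control and Rh2-20 and 104 to 139 in the other 4 libraries, against 23450 to 31762 counts of Cox6b1. Its Dox difference was the largest of complex IV at 0.54 ± 0.41 (log2, SE; adjusted p = 0.707 by edgeR). Its Rh2 difference, also the largest of the complex, was 0.45 ± 0.45 (adjusted p = 0.770 by edgeR).

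**Figure D5:**
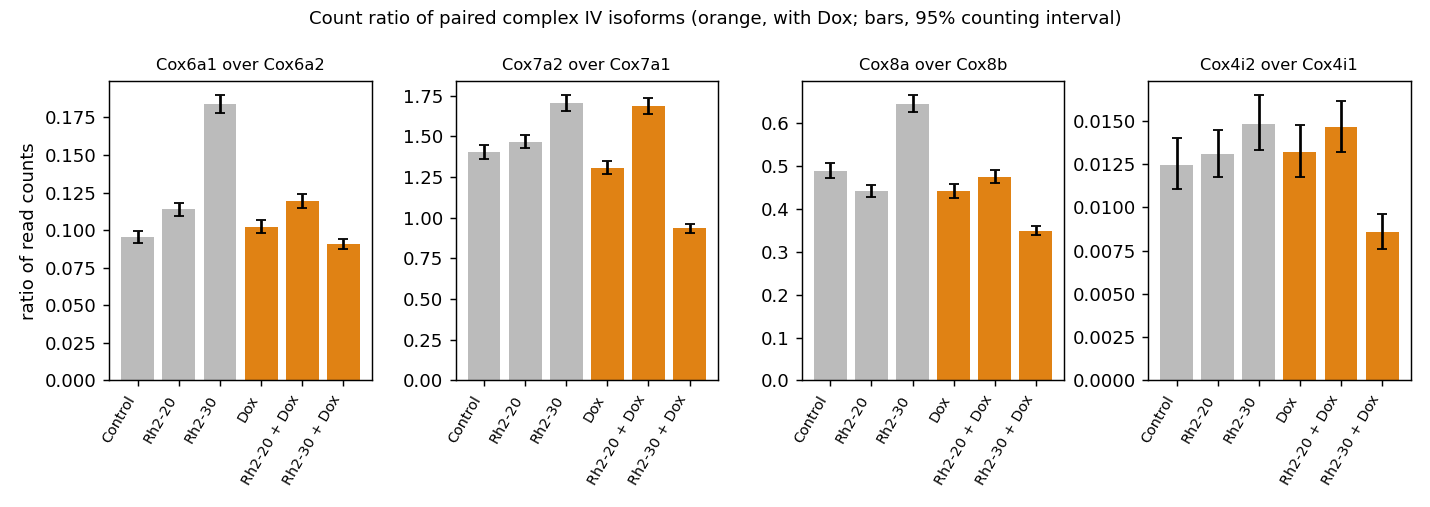
The ratio of read counts of 4 isoform pairs of complex IV (vertical axes, from 0) in the 6 libraries, with error bars for the 95% counting interval and orange for libraries given Dox. Each ratio is highest in Rh2-30 and lowest in Rh2-30 + Dox, although the interval of Rh2-30 overlaps those of the 4 middle libraries in Cox4i2 over Cox4i1 and that of Rh2-20 + Dox in Cox7a2 over Cox7a1, and the interval of Rh2-30 + Dox overlaps that of Control in Cox6a1 over Cox6a2.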

How the data were processed

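Libraries were built with the SureSelect XT RNA Direct kit, a hybridisation capture of exons, and sequenced as 101-base reads; capture sets levels by bait as well as by abundance. According to the methods and the submitters' processing notes, base calls came from bcl2fastq 2.20.0, and reads were trimmed with Trimmomatic, aligned to mm10 with HISAT2 2.1.0 and assigned to UCSC genes with StringTie 2.1.3b. The authors deposited whole read counts per gene, not normalised. The deposited FPKM values, scaled to transcript length and to the mapped fragments of the library, were used only for levels per length and as alternatives. TPM and the authors' own comparisons were not used.

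Genes with a mean of 10 or more counts were fitted with edgeR 4.0.16 (quasi-likelihood, TMM, two-sided, Benjamini-Hochberg over 18328 genes) in R 4.3.3, where libraries that share Dox or Rh2 status served as replicates. The p-values therefore rest on the spread between pooled libraries of unlike conditions, which in the Dox fit takes in differences of Rh2 dose. No condition had a second library. Single-library ratios used a prior of 0.5 counts, an exact binomial 95% interval, which covers counting error only, and a wider one with a common dispersion of 0.0285, estimated over all libraries as 1 group. Alternatives used DESeq2 1.42.0 and limma 3.58.1 on log2(FPKM + 1) and log2(FPKM + 0.1). Transcript lengths were the longest protein-coding transcript in GENCODE M21, found for 81 members. Plots were made in Python 3.11.15 (matplotlib 3.10.9). The fits were tested on simulated counts.

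The members and all lists were chosen with earlier results of these data known. Named genes were core subunits, isoform pairs, the highest and lowest of each complex in the Dox effect, the Rh2 effect and Rh2-30 + Dox against Dox, and the 5 with the largest range over libraries; others are said to be named after their values were seen. A gene that the rule names is not reported here.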

Additional observations from a re-analysis of the deposited data

Results flagged for a closer look

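Cox7a2, the ubiquitous form of complex IV subunit 7A, had 1 library far from the others of its group. Among the 4 libraries with Rh2 its CPM was 141 in Rh2-20, 143 in Rh2-30, 146 in Rh2-20 + Dox and 107 in Rh2-30 + Dox, and the gap below the nearest library was 0.886 of the range on the log2 scale. It was 1 of 45 values checked (the named genes and the members' median), and chance alone marks about 1 in 20.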

How the results depend on the processing

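No member passed an adjusted p of 0.05 in the main edgeR fits, so there was no called value that could change sign. The members' median did change sign in 2 results. In the Dox effect it went from 0.093 to -0.054 without Rh2-30 + Dox. In Rh2-30 against Control it went from -0.038 to 0.13 with library totals alone. Of 291 values under an alternative, 242 stayed on the same side of the threshold or within the spread. With library totals alone, log2(FPKM + 1) and log2(FPKM + 0.1), the members' median log2 ratio was 0.25, 0.25 and 0.25 in Rh2-20 against Control, 0.13, 0.11 and 0.11 in Rh2-30 against Control, 0.16, 0.15 and 0.15 in Rh2-20 + Dox against Control, 0.22, 0.20 and 0.20 in Rh2-20 + Dox against Dox and 0.32, 0.33 and 0.33 in Rh2-30 + Dox against Rh2-30, and with the 2 FPKM scales it was 0.47 and 0.48 in Rh2-30 + Dox against Dox. At a log2 ratio of 0.32, 67 members were higher and 0 lower in Rh2-30 + Dox against Control (of 18328 genes, 3487 and 4346). In Rh2-30 + Dox against Dox, 73 were higher and 0 lower (all genes, 3460 and 4579). In Rh2-30 + Dox against Rh2-30, 72 were higher and 1 lower (all genes, 3322 and 5544). At a fold of 2, 2 members were higher and 0 lower against Control (all genes, 745 and 1255). None was past that fold against Dox (all genes, 503 and 1348) or against Rh2-30 (all genes, 440 and 2216). Members at an unadjusted p under 0.05 in the Rh2 effect numbered 34 with library totals alone (all genes, 10.7%), 7 by DESeq2 (10.3%), 25 by limma on either FPKM scale (10.5% and 10.6%), 0 with each dose as its own level, and 42 without both Rh2-30 libraries, an alternative chosen after seeing the data; mitochondria-encoded subunits numbered 1 by limma on either FPKM scale and 2 with each dose as its own level. In the Dox effect, 3 members were at an unadjusted p under 0.05 with Rh2 dose as a term, DESeq2 called 1 member, Ndufc2 (0.62), and the members' median without both Rh2-30 libraries was -0.10. Leaving out 1 library at a time, members at an unadjusted p under 0.05 numbered 2 to 8 in the Dox effect (all genes, 8.05% to 9.21%). The members' median ranged over -0.054 to 0.20 in the Dox effect and 0.074 to 0.36 in the Rh2 effect. With a library given Rh2 left out, 1 to 10 members and 5 to 13 mitochondria-encoded subunits were at an unadjusted p under 0.05 in the Rh2 effect (all genes, 6.29% to 7.91%). In the interaction only libraries given Rh2 were left out, not Control or Dox, and the members' median ranged over 0.10 to 0.48. The causes were not tested. The libraries with and without Dox at each Rh2 dose make 3 pairs, and the fit with Rh2 dose as a term is the paired one: the members' median Dox difference was 0.077 in it. The labels give no replicate numbers, since each condition held 1 library. With 1 pooled library a condition, the spread between libraries of the same condition was not measured.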
